A study of Mus musculus with 12 samples.

Results

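The Hedgehog pathway was followed through 10 of its components in mammary glands of 5 week old mice. The genes were the ligand Dhh, the cell surface genes Gas1, Boc, Ptch1, Smo and Hhip, and the effectors Sufu, Gli1, Gli2 and Gli3. All probes that the platform annotation assigns to these symbols were taken, which gave 10 of the 12913 genes that the annotation names and 12 of the 17589 probes on the array, with Ptch1 and Sufu each read by a pair of probes. Every member probe had a value on every array. Where a gene has a pair of probes, the accession of the sequence behind the probe is given, and the accessions of 7 of the 12 probes matched a RefSeq transcript of the same gene.

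Hedgehog ligands are secreted proteins that bind Ptch1, a membrane protein that otherwise holds the signal transducer Smo inactive. Gas1 and Boc bind the ligand together with Ptch1 and help reception, while Hhip binds the ligand and withholds it. When Smo is free, the Gli transcription factors escape their restraint by Sufu and switch on target genes, among which Ptch1, Gli1 and Hhip are themselves the usual readouts. Gli1 and Gli2 act mainly as activators and Gli3 mainly as a repressor, and repression by Gli3 is known to be needed for normal mammary bud formation in the embryo.

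The groups were 6 arrays of microdissected terminal end buds, the bulbous growing tips of the ductal tree, and 6 arrays of microdissected mature ducts. On every array the epithelial RNA was labelled with Cy5 and set against RNA of distal stroma, the part of the fat pad that the epithelium has not reached, labelled with Cy3. All tissue came from glands of 5 week old mice with a green fluorescent reporter under the beta-actin promoter, which served to see the tree during dissection, and no other allele or treatment is named. Separate animals are not stated for the arrays, nor is a pool for the stroma, so a p-value here covers the spread from array to array, which may be technical. Values are ratios of epithelium over stroma on a log scale of unstated base, read as log2. Stroma served as the reference throughout and was treated as 1 control sample, without a spread of its own. No dyes were swapped per the labels, so a bias of a probe towards either dye would stay in its ratio. In ratios of dissected tissue, fewer cells that express a gene and less RNA per cell cannot be told apart.

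Marker lists placed the dissected tissue. Krt18, the luminal keratin 18, was 5.19 above stroma in terminal end buds and 4.98 in ducts, the basal keratin gene Krt14 1.502 and 2.79, and the junction gene Cdh1 1.94 and 1.69. Of the fat cell genes Fabp4 was at -2.13 and -0.82 and Adipoq at -0.46 and -0.21, the last not called, while the collagen gene Col1a1 was at 1.47 and 0.77. All 10 luminal markers were higher than stroma in both structures, with array means of the list between 2.90 and 4.26. Of 9 measured basal markers, 7 were higher in terminal end buds and 9 in ducts. The means of the fat cell list and the endothelial list lay below 0 on every array, whereas the means of the 12 fibroblast markers lay between 0.188 and 0.826 in terminal end buds and between 0.261 and 1.11 in ducts. A ratio near 0 says that the signal was alike in the epithelial sample and in stroma. Intensities are not given, so a gene at equal levels in both and a gene absent from both cannot be told apart.

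**Figure D1:**
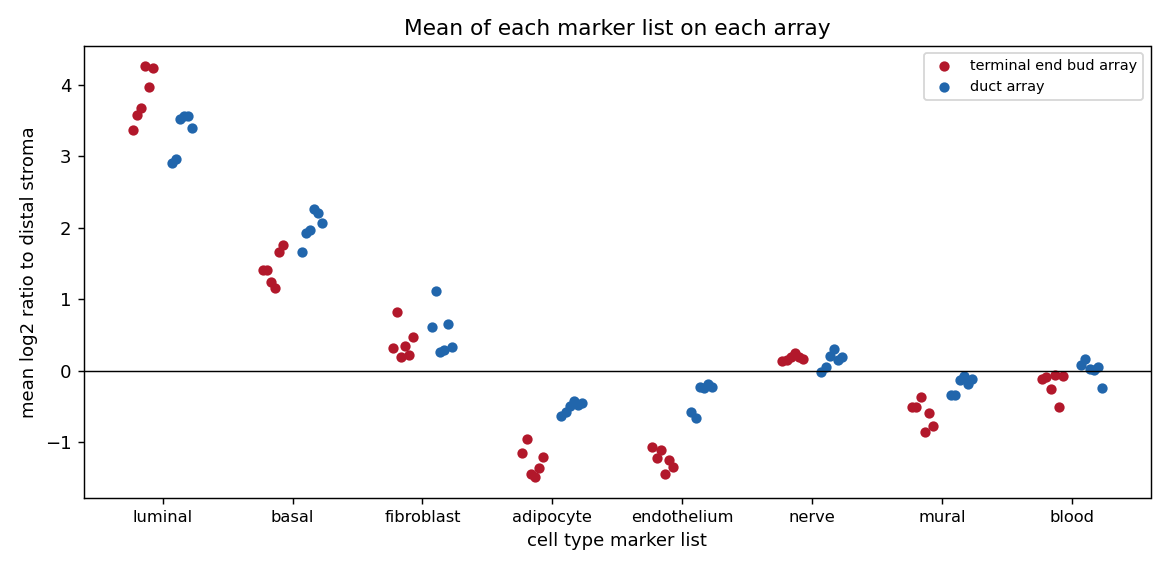
Each point is the mean log2 ratio to distal stroma of a cell type marker list on 1 array, with terminal end bud arrays in red and duct arrays in blue. Luminal and basal lists lie above 0 on every array, the fibroblast list lies between 0.188 and 1.11, and the adipocyte and endothelial lists lie below 0.

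Against stroma, terminal end buds had 6 of the 12 member probes higher and 0 lower with limma, at an adjusted p under 0.05 over all probes. They belonged to Dhh, Gas1, Boc, Smo, Sufu and Gli2. Over all probes, 23.2% were higher and 20.4% lower in that comparison. In ducts 3 of the 12 probes were higher and 0 lower, those of Gas1, Boc and Smo, against 16% of all probes higher and 12.2% lower. Between the structures 2 of the 12 were higher in terminal end buds and 0 in ducts, those of Dhh and of Sufu (NM_015752), against 8.32% of all probes higher in terminal end buds and 10.4% higher in ducts. Probes above 0 on all 6 terminal end bud arrays numbered 6 of the 12, against 21.8% of all probes, and those above 0 on all 6 duct arrays numbered 3, against 17.9%. The median over the 12 member probes was 0.37 in terminal end buds and 0.11 in ducts, while the median over all probes was 0.015 in each.

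**Figure D2:**
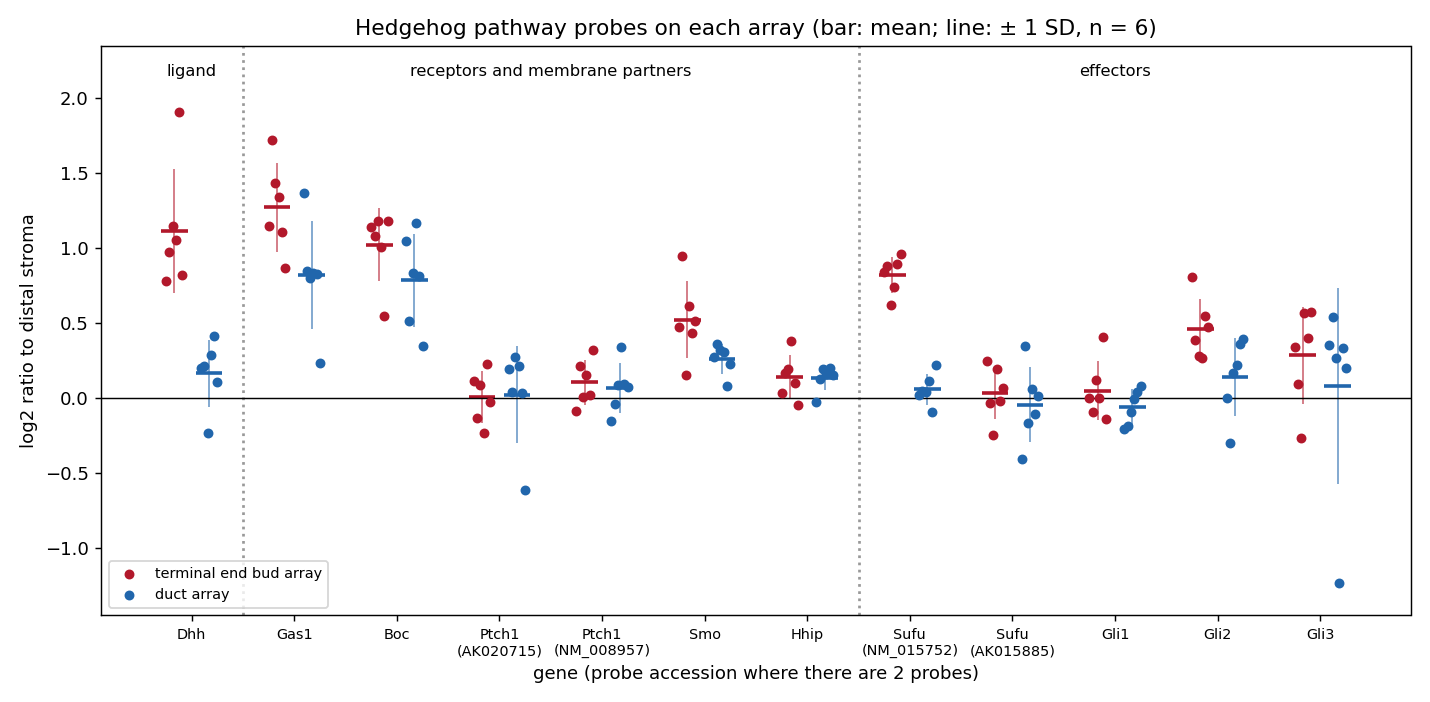
Log2 ratio to distal stroma of the 12 Hedgehog pathway probes on each array, with terminal end bud arrays in red and duct arrays in blue, and with horizontal bars for the means and vertical lines for 1 SD on either side (n = 6). Dhh and Sufu (NM_015752) are the probes whose groups do not overlap, and both Ptch1 probes and Gli1 scatter around 0.

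Dhh, which encodes Desert hedgehog, was the member that set terminal end buds and ducts furthest apart. Its log2 ratio to stroma was 0.78, 0.97, 1.15, 1.06, 1.91 and 0.82 on terminal end bud arrays 1 to 6. On duct arrays 1 to 6 it was 0.20, 0.21, -0.24, 0.29, 0.42 and 0.11. Every terminal end bud array lay above every duct array, an order that 4.4% of all probes with complete values showed, and terminal end bud array 5 stood well above the rest. The mean was 1.11 ± 0.41 (SD, n = 6) in terminal end buds and 0.16 ± 0.22 (SD, n = 6) in ducts.

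The ratio of Dhh over stroma was called in terminal end buds (SE 0.12, limma adjusted p = 3.28e-06) and not in ducts (limma adjusted p = 0.354), with a 95% interval in ducts from -0.097 to 0.42. The structures themselves differed by 0.95 (SE 0.17, limma adjusted p = 0.00142). A two-sided exact permutation test over the arrays gave p = 0.00216 for that difference, the smallest that 6 and 6 arrays allow, and 0.0212 after adjustment over all probes with complete values. Without terminal end bud array 5 the difference was 0.79 (limma adjusted p = 0.000528). On the arrays with title numbers up to 193, which are 2 in each group, it was 0.67, and on the 4 in each group from 196 on it was 1.09.

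Dhh is well known from Schwann cells, and markers of nerve were therefore set beside it. The means of the 8 measured nerve markers of 12 listed lay between 0.133 and 0.254 in terminal end buds and between -0.0091 and 0.306 in ducts. The Schwann cell and myelin genes S100b, Pmp22 and Mbp lay below stroma in terminal end buds, at -0.86, -0.87 and -0.45. Sox10, a transcription factor of Schwann cells that mammary epithelium also expresses, was higher by 2.55, and Ngfr, a neurotrophin receptor, by 0.84, and in both the ducts had the lower ratio, by 0.70 and 1.10. Pmp22 went the other way, with a difference of -1.15 between terminal end buds and ducts (limma adjusted p = 0.000196). Mag, Foxd3 and Gfap lay between 0.029 and 0.13 in terminal end buds and were not called. These markers were singled out after their values were seen, and their part in the Dhh ratio was not tested.

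The ratios of the other Hedgehog ligands were not called, and the difference between ligands was not tested. Shh stood at -0.072 in terminal end buds (limma adjusted p = 0.397) and at -0.17 in ducts (0.056). Ihh stood at 0.032 and -0.022 (0.686 and 0.818). Shh and Ihh are named here as the other ligands of the family, after their values were seen.

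Bases upstream of the start site are shown for Dhh, Sufu and Gas1. Dhh and Sufu were called between the structures, Sufu by the probe NM_015752 alone. Gas1 had the largest ratio to stroma among the members. The bases come from RefSeq promoter windows of build GRCm38.p6, which held 8 of the 10 members (all but Boc and Gli1). They are printed 5′ to 3′ on the gene's strand and end before the outermost annotated start. Capitals mark GC boxes, GGGCGG or on the other strand CCGCCC, a common promoter element.
Dhh (chr15:98898563-98898790, minus strand): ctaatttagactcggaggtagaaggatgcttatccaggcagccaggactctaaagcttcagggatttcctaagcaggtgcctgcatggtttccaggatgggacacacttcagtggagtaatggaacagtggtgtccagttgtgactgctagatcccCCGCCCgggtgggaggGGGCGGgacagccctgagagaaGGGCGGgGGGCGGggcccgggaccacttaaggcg
Sufu (chr19:46396646-46396895, plus strand): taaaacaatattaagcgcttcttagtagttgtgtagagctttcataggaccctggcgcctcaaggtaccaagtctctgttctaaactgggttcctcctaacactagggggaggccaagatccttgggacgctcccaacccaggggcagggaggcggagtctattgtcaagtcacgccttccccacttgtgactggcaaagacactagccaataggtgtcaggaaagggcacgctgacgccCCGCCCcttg
Gas1 (chr13:60177536-60177785, minus strand): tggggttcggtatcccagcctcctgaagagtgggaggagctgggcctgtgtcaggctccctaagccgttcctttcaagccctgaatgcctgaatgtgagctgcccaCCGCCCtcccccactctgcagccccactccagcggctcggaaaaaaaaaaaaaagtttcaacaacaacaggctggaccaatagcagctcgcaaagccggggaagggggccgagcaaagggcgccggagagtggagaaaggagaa

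Dhh held 4 GC boxes in the 250 bases before the window's start site, and Sufu and Gas1 held 1 each. Of the 8 members with a window, 7 held a GC box there, all but Smo, against 32.7% of the 32851 windows in the table. The consensus site of the Gli proteins, GACCACCCA or on the other strand TGGGTGGTC, was in 0 of the 8 windows and in 0.225% of all. The TATA box, TATAAA or on the other strand TTTATA, was in 0 of the 8 and in 12.4% of all. The share of G and C was 59.6% for Dhh, 54% for Sufu and 58.8% for Gas1, and from 54% to 78.4% over the 8, against a median of 52.4% over all windows. None of the 3 motifs contains another. A match is a run of letters and no evidence of binding, and the absence of a match holds for these bases alone.

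Among the cell surface genes, Gas1 and Boc were above stroma on every array of both structures. Gas1 encodes a membrane-anchored protein that helps Ptch1 bind ligand. Its log2 ratio was 1.15, 1.725, 1.44, 1.34, 1.11 and 0.87 on terminal end bud arrays 1 to 6, and 1.37, 0.85, 0.80, 0.83, 0.825 and 0.23 on duct arrays 1 to 6. The groups overlapped, since duct array 1 reached the upper terminal end bud values and duct array 6 lay far under the rest. The means were 1.27 ± 0.30 and 0.82 ± 0.36 (SD, n = 6 each), both called over stroma (limma adjusted p = 8.8e-07 and 0.000165).

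The difference of Gas1 between the structures, 0.45 with a 95% interval from 0.085 to 0.82, did not pass the threshold (limma adjusted p = 0.0862). It shrank to 0.14 with quantile normalization (limma adjusted p = 0.729) and to 0.23 with the arrays scaled to a common spread (0.579). It passed without duct array 1 (0.56, limma adjusted p = 0.0261), and the two-sided exact permutation test gave p = 0.0303 before and 0.122 after adjustment over all probes. Within the arrays up to title number 193 the difference was 0.33 and within those from 196 on it was 0.52, called in neither.

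Boc encodes an immunoglobulin family receptor of the cell surface that binds ligand as Gas1 does. Its log2 ratio was 1.14, 1.08, 1.18, 1.01, 0.54 and 1.18 on terminal end bud arrays 1 to 6, with array 5 apart from the others. On duct arrays 1 to 6 it was 1.05, 0.51, 0.84, 1.165, 0.82 and 0.35, a wider spread that overlapped the terminal end buds. The means, 1.02 ± 0.24 and 0.79 ± 0.31 (SD, n = 6 each), were both called over stroma (limma adjusted p = 1.73e-06 and 6.76e-05). Their difference of 0.24 was not called (limma adjusted p = 0.328), with a 95% interval from -0.081 to 0.55. It was 0.049 with the arrays scaled to a common spread and changed sign with quantile normalization (-0.078, limma adjusted p = 0.832). Cdon, the close relative of Boc with the same role, stood at 0.0067 in terminal end buds and 0.10 in ducts and was not called in either (limma adjusted p = 0.966 and 0.48), and it is named as that relative after its values were seen.

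Smo, the transducer that Ptch1 restrains, was above stroma on all 12 arrays. Its log2 ratio was 0.47, 0.95, 0.15, 0.61, 0.435 and 0.51 on terminal end bud arrays 1 to 6 and 0.275, 0.36, 0.32, 0.31, 0.079 and 0.23 on duct arrays 1 to 6. The means were 0.52 ± 0.26 and 0.26 ± 0.10 (SD, n = 6 each), called with limma adjusted p = 7.08e-05 in terminal end buds and 0.0228 in ducts. The call in ducts ended when any of duct arrays 1 to 4 was left out, with values from 0.24 to 0.26 and limma adjusted p from 0.0524 to 0.0639. It was also missed on the arrays with title numbers up to 193 alone (0.32, limma adjusted p = 0.184) and from 196 on alone (0.23, limma adjusted p = 0.0753). The difference between the structures, 0.26 with a 95% interval from 0.023 to 0.50, was not called (limma adjusted p = 0.131). It was 0.14 with quantile normalization (limma adjusted p = 0.472), and it was called without terminal end bud array 3 (0.34, limma adjusted p = 0.0298).

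Ptch1 and Hhip, which are receptor and decoy and also targets of the pathway, lay close to stroma. The Ptch1 probe NM_008957 had log2 ratios from -0.090 to 0.32 in terminal end buds, with a mean of 0.10 ± 0.15 (SD, n = 6), and from -0.16 to 0.34 in ducts, with a mean of 0.066 ± 0.17 (SD, n = 6). The Ptch1 probe AK020715 ran from -0.24 to 0.23 in terminal end buds, with a mean of 0.0052 ± 0.17 (SD, n = 6), and from -0.61 to 0.27 in ducts, with a mean of 0.023 ± 0.33 (SD, n = 6). Neither probe was called in any comparison, with limma adjusted p from 0.242 to 0.974, and the 95% intervals of the difference between the structures were -0.17 to 0.24 and -0.32 to 0.28.

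Hhip ran from -0.044 to 0.38 in terminal end buds and from -0.024 to 0.20 in ducts. Its means of 0.14 ± 0.15 and 0.14 ± 0.083 (SD, n = 6 each) were above 0 on 5 arrays of each group and not called (limma adjusted p = 0.0649 and 0.0968). Without terminal end bud array 6 the value in terminal end buds was 0.175 and was called (limma adjusted p = 0.0341). The structures differed by 0.0033 in Hhip, with a 95% interval from -0.17 to 0.18, and by -0.012 with quantile normalization.

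Sufu, the inhibitor that holds the Gli proteins in the cytoplasm, rose in terminal end buds by 1 of its probes. The probe NM_015752 had log2 ratios of 0.84, 0.88, 0.62, 0.74, 0.89 and 0.96 on terminal end bud arrays 1 to 6. On duct arrays 1 to 6 it had 0.019, 0.044, 0.040, 0.11, -0.094 and 0.22. All terminal end bud arrays lay above all duct arrays, and the arrays of each structure lay close together. The means were 0.82 ± 0.12 and 0.057 ± 0.10 (SD, n = 6 each).

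This Sufu probe had the lowest adjusted p of the members, both over stroma in terminal end buds (limma adjusted p = 3.11e-08) and between the structures (a difference of 0.77, SE 0.079, limma adjusted p = 2.21e-05). In ducts its ratio was not called (limma adjusted p = 0.496), with a 95% interval from -0.062 to 0.18. The two-sided exact permutation test of the difference gave p = 0.00216, the smallest possible, and 0.0212 after adjustment over all probes. The difference was 0.83 on the arrays with title numbers up to 193 and 0.73 on those from 196 on.

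The other Sufu probe, AK015885, gave no call. It ran from -0.245 to 0.25 in terminal end buds and from -0.41 to 0.34 in ducts, with means of 0.035 ± 0.18 and -0.044 ± 0.25 (SD, n = 6 each). Its limma adjusted p ran from 0.724 to 0.781 over the comparisons, and the 95% interval of its difference between the structures ran from -0.18 to 0.34, where that of NM_015752 ran from 0.60 to 0.93. Unlike NM_015752, its accession had no match among the RefSeq transcripts of the gene. The part of the gene that either probe reads is not known here, and the mean of the pair gave 0.43 in terminal end buds and a difference of 0.42 between the structures (limma adjusted p = 4.78e-05 and 0.00363).

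Gli1, an activator whose own transcription follows pathway activity, was not called against stroma in either structure. Its log2 ratios on terminal end bud arrays 1 to 6 were 0.002, -0.092, 0.12, -0.002, 0.41 and -0.14, and on duct arrays 1 to 6 they were -0.21, -0.19, -0.092, -0.009, 0.041 and 0.079. Values lay on both sides of 0 in each group. The means were 0.049 ± 0.20 and -0.063 ± 0.12 (SD, n = 6 each, limma adjusted p = 0.609 and 0.552), and the 95% interval of the difference between the structures ran from -0.098 to 0.32.

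Gli2, the main activator upstream of Gli1, was higher than stroma in terminal end buds. Its log2 ratios were 0.805, 0.385, 0.28, 0.27, 0.55 and 0.47 on terminal end bud arrays 1 to 6, all above 0. On duct arrays 1 to 6 they were 0.001, -0.30, 0.17, 0.22, 0.36 and 0.39, so the groups overlapped. The mean of 0.46 ± 0.20 in terminal end buds was called (SD, n = 6, limma adjusted p = 0.000681) and that of 0.14 ± 0.26 in ducts was not (SD, n = 6, limma adjusted p = 0.275). In ducts the value differed between the arrays with early and with late title numbers, and this difference was not tested. It was -0.15 (limma adjusted p = 0.55) on those with title numbers up to 193 and 0.29 (limma adjusted p = 0.02) on those from 196 on. The difference between the structures was 0.32 with a 95% interval from 0.047 to 0.59 (limma adjusted p = 0.104). Within the arrays up to 193 it was 0.75 and within those from 196 on 0.11, called in neither.

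Gli3, mainly a repressor, had the widest spread of the members in ducts, where 1 array stood far apart. Its log2 ratios were 0.34, 0.094, -0.265, 0.57, 0.40 and 0.57 on terminal end bud arrays 1 to 6 and 0.35, 0.54, 0.27, -1.24, 0.33 and 0.20 on duct arrays 1 to 6. Duct array 4 was far under all other arrays. With it, neither the mean of 0.28 ± 0.32 in terminal end buds nor that of 0.077 ± 0.65 in ducts was called (SD, n = 6 each, limma adjusted p = 0.237 and 0.805). The difference between the structures was 0.21, with a 95% interval from -0.35 to 0.76 (limma adjusted p = 0.657). Without that array both ratios were called, at 0.28 and 0.34 (limma adjusted p = 0.0272 and 0.0313), the terminal end bud value being unchanged because that array enters only the shared spread, and the difference turned to -0.055 (limma adjusted p = 0.849). On the arrays with title numbers up to 193 alone, which leave it out, the ratio in ducts was 0.45 (limma adjusted p = 0.0427).

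**Figure D3:**
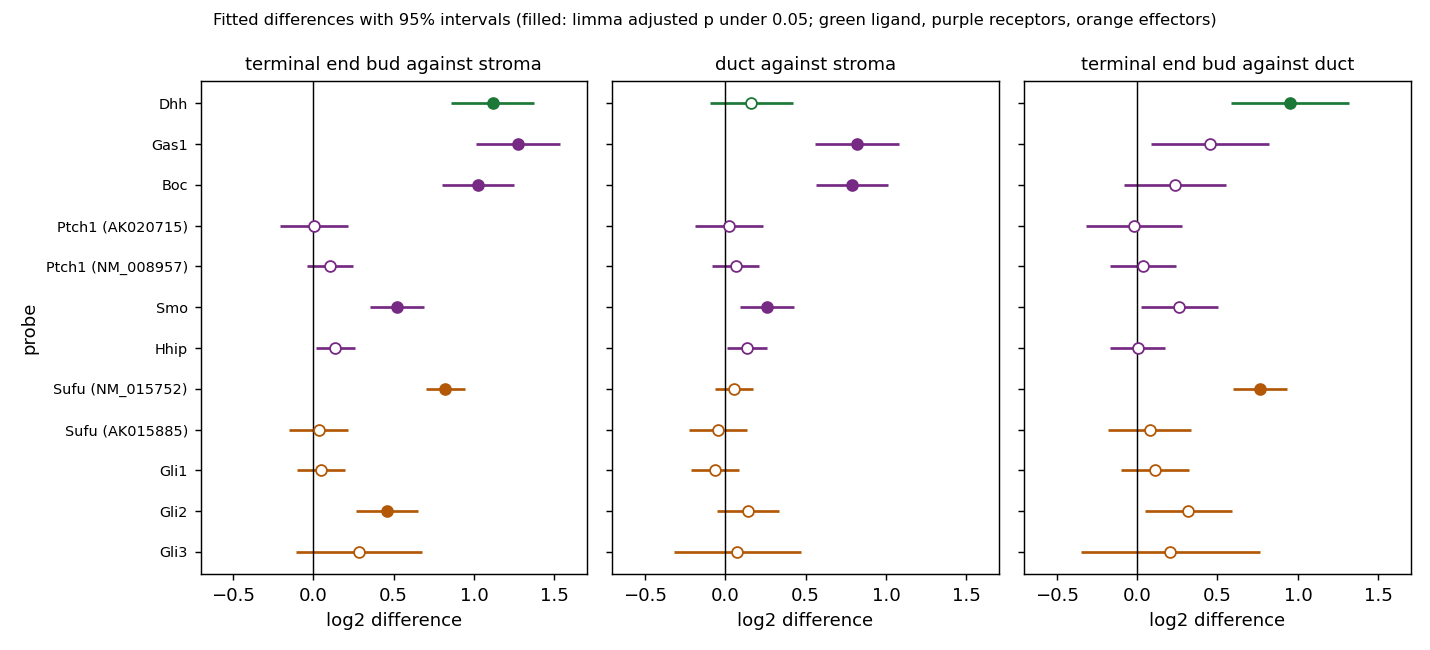
Fitted log2 differences of the 12 probes with 95% intervals in the 3 comparisons, filled where the limma adjusted p was under 0.05, with the ligand in green, cell surface genes in purple and effectors in orange. The filled points number 6 in terminal end bud against stroma, 3 in duct against stroma and 2 in terminal end bud against duct, and all lie above 0.

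Gas1, Boc and the Gli genes are also expressed by fibroblasts, and the 12 fibroblast markers were therefore set beside them. Of the 12, 6 were higher than stroma in terminal end buds and 1 was lower, led by Fn1 at 1.77, Col1a1 at 1.47, Pdgfrb at 1.38 and Thy1 at 1.29, while Dpt was at -1.90. Over all probes, 23.2% were higher and 20.4% lower in that comparison. In ducts 7 were higher and 0 lower, against 16% and 12.2% of all probes. Between the structures 3 had the higher ratio in terminal end buds (Pdgfrb by 0.79, Thy1 by 0.67 and Fn1 by 0.50) and 2 had the lower, Col3a1 with a difference of -1.22 and Dpt with -1.43. The shares of all probes there were 8.32% higher and 10.4% lower. On duct array 6, the lowest for Gas1 and Boc, the mean of the list was 0.332, within the range of the other duct arrays. On terminal end bud array 5, the lowest for Boc, it was 0.219, again within the range of its group. These genes were singled out after their values were seen, and the part of fibroblast RNA in the ratios of the members was not tested.

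Beyond the members, 128 further genes of the pathway were listed by role, of which 102 were on the array. In terminal end buds against stroma 42 were higher and 20 lower (41.2% and 19.6%, where all probes gave 23.2% and 20.4%), and in ducts 38 and 10 (37.3% and 9.8%, where all probes gave 16% and 12.2%). Between the structures 13 were higher in terminal end buds and 17 in ducts (12.7% and 16.7%, where all probes gave 8.32% and 10.4%). Nothing particular to the list is read from these shares. The medians of the list were 0.096, 0.10 and 0.0013. No test of the list as a whole was made, and most of its genes serve other pathways too. Called on the 2 arrays per group with title numbers up to 193 were 36, 17 and 5 of the 102. That set was chosen after seeing the data, and the share of all probes on it is not given.

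**Figure D4:**
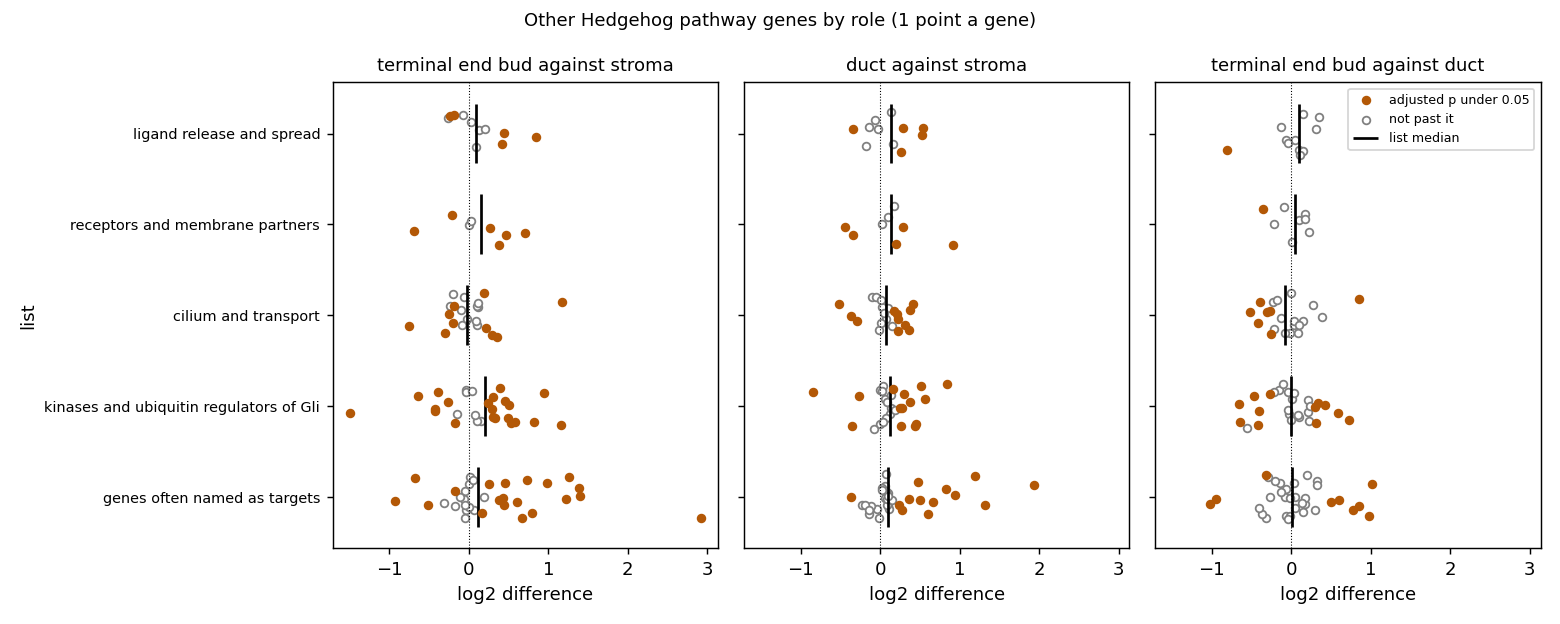
Log2 differences of 102 other Hedgehog pathway genes in 5 lists by role, 1 point a gene and filled where the limma adjusted p was under 0.05, with the list medians as black bars. The medians lie between -0.082 and 0.20, and the points furthest from 0 against stroma in terminal end buds are Ccnd1, among the genes often named as targets, at 2.92 and Prkaca, among the kinases, at -1.49.

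Genes often named as Hedgehog targets included Ccnd1, the gene of the list with the highest ratio in both structures. Of 34 measured, 16 were higher and 4 lower than stroma in terminal end buds (47.1% and 11.8%, against 23.2% and 20.4% of all probes), and 12 were higher and 1 lower in ducts (35.3% and 2.94%, against 16% and 12.2%). Not called were 14 in terminal end buds and 21 in ducts. The genes named here were picked for the largest called changes. The usual readouts Ptch1, Gli1 and Hhip are members outside this list and were not called in the main fit. Ccnd1, the G1 cyclin D1, was higher by 2.92 (SE 0.12) in terminal end buds and by 1.94 (SE 0.12) in ducts. Sox9, a transcription factor of progenitor cells, was higher by 1.40 and 1.20. Snai1, a regulator of epithelial plasticity, was higher by 1.39 and 0.61. Between the structures Wnt5a, a secreted Wnt ligand, was higher in terminal end buds by 1.01 (SE 0.12, limma adjusted p = 7.71e-05), Ccnd1 by 0.98 and the T-box factor Tbx2 by 0.85. Igfbp6, which binds IGF2, was lower by a log2 difference of -1.02 (SE 0.25, limma adjusted p = 0.0111) and the Notch effector Hey1 by -0.95. In all 6 were higher and 3 lower between the structures (17.6% and 8.82%, against 8.32% and 10.4% of all probes).

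Of 28 measured kinases and ubiquitin regulators of the Gli proteins, 14 were higher than stroma and 7 lower in terminal end buds (50% and 25%, against 23.2% and 20.4% of all probes), and 11 and 3 in ducts (39.3% and 10.7%, against 16% and 12.2%). Prkaca is a catalytic subunit of protein kinase A, which phosphorylates Gli proteins for processing to repressors. Its ratio was -1.49 in terminal end buds (SE 0.092, limma adjusted p = 1.35e-08) and -0.84 in ducts. Prkacb, another catalytic subunit, was at -0.15 in terminal end buds (limma adjusted p = 0.273) and -0.35 in ducts (limma adjusted p = 0.0184). It is named as that relative after its values were seen. Sap18, a partner of Sufu in a corepressor complex, was higher by 1.15 and 0.845 (limma adjusted p = 1.35e-08 and 1.28e-06). Between the structures 6 were higher in terminal end buds and 6 in ducts (21.4% each, against 8.32% and 10.4% of all probes). Protein kinase A is also active in fat cells, and the adipocyte list lay between -1.48 and -0.955 in terminal end buds and between -0.636 and -0.416 in ducts. Its part in the Prkaca ratio was not tested.

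Vertebrate Hedgehog signals pass through the primary cilium. Of 21 measured genes of the cilium and its transport, terminal end buds had 5 higher and 5 lower, 23.8% each and near the 23.2% and 20.4% of all probes. Ducts had 8 higher and 3 lower (38.1% and 14.3%, against 16% and 12.2%), and between the structures 1 favoured terminal end buds and 6 ducts (4.76% and 28.6%, against 8.32% and 10.4%). The gene that was higher between the structures was Dync2li1, a light intermediate chain of the dynein that carries cargo back from the cilium tip, by 0.86 (SE 0.12, limma adjusted p = 0.000183), with a ratio to stroma of 1.17 in terminal end buds and 0.31 in ducts. The 6 that were lower in terminal end buds were Ift81, Ift20, Rab34, Ift80, Ofd1 and Kifap3, with differences from -0.52 to -0.25.

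Genes of ligand release and spread and further membrane partners gave 1 call each between the structures, lower in terminal end buds. These were 9.09% and 12.5% of the lists, near the 10.4% of all probes. In each list 0 were higher, against 8.32% of all probes. Of 11 measured in the release list, terminal end buds had 3 higher and 2 lower (27.3% and 18.2%, near the 23.2% and 20.4% of all probes), and ducts had 4 higher and 1 lower (36.4% and 9.09%, against 16% and 12.2%). Of 8 further membrane partners, terminal end buds had 4 higher and 2 lower (50% and 25%) and ducts 3 and 2 (37.5% and 25%), against the same shares of all probes. Arrb1, a beta-arrestin that binds active Smo, was higher by 0.70 in terminal end buds and 0.91 in ducts (limma adjusted p = 3.3e-05 and 1.02e-05).

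The genes most alike were sought for the 3 members with the lowest adjusted p, by the mean absolute difference in log2 ratio over the 12 arrays among 12833 genes. For Sufu (NM_015752) these were Gm38431 at 0.090 and Rfc2, a subunit of the clamp loader of DNA replication, at 0.11. For Gas1 they were Cxcl10, a chemokine, at 0.21 and Cdc42se1 at 0.22. For Boc they were Fam110a and Efhd2, both at 0.20. These distances describe likeness on these arrays, which share the stromal reference.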

How the data were processed

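The authors deposited 1 table of log ratios, read here as log2, with epithelium in Cy5 over stroma in Cy3 per the labels. No source used here gives the scanning, background correction, normalization or base; the values are too wide for base 10, and natural logarithms would also be possible. Values were used as deposited, since the array medians lay between 0.01 and 0.023. Gene names came from the platform annotation. For genes outside the members 1 probe stood for a gene, the one with most values and then the first in the table.

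A single model with a mean for each of the 2 groups was fitted to the 12 arrays in limma 3.58.1 under R 4.3.3 (lmFit and eBayes, two-sided), with p-values adjusted by Benjamini-Hochberg over the 17589 probes and a threshold of 0.05. It was also run on simulated data, independent normal noise with known differences in some probes. That noise holds no shared reference and no far arrays, so the run says nothing on those features. Exact permutation tests reassigned arrays between groups. There were 36 tests of member probes. Intervals of 95% are unadjusted. Array numbers name arrays in the order of their records. Equal numbers in the 2 groups fall on neighbouring title numbers, which the replicate block used. The labels state no pairing, and the main model made none.

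The members, the gene lists and the tests were chosen with earlier results of these data known. Named are all members, up to 6 further pathway genes with the largest called change in each comparison (not all printed), and the 2 genes most alike for 3 members. A few other genes of the lists are named beside these. The list of cell type markers is of common knowledge. Alternatives tried were array centring, quantile scaling, a common spread, a replicate block of neighbouring title numbers, a term for early and late title numbers, another variance model, array weights, each group alone, complete probes, each array left out, a minimum size, and averaging the pair of probes of Sufu and Ptch1. Fits within early and late title numbers were added after seeing the data. Precision is set by how few arrays there are.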

Additional observations from a re-analysis of the deposited data

Results flagged for a closer look

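An array stood apart from the other 5 of its group in 5 of 24 groups of member values. The cutoff is set to mark about 5% of groups with normal values. The share over all probes was not computed and the groups share arrays, so nothing particular to the members is read from this count. Dhh was at 1.91 on terminal end bud array 5, where the next highest was 1.15. Boc was at 0.54 on the same array, where the next lowest was 1.01. Ptch1 (AK020715) was at -0.61 on duct array 6, Gli3 at -1.24 on duct array 4 and Hhip at -0.024 on duct array 1, each below the rest of its group. Among the further pathway genes named for the largest called changes, 0 groups had such an array. Those genes were picked for passing the threshold, which a far array makes harder. Their count is therefore no comparison for the members, which were taken whatever they showed.

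The ratio to stroma differed between terminal end buds and ducts for 2 members, by limma's test of the difference. Of the further genes, the 6 with the largest called difference are listed here. Dhh differed by 0.95 and Sufu (NM_015752) by 0.77, higher in terminal end buds. Wnt5a differed by 1.01, Ccnd1 by 0.98, Dync2li1 by 0.86 and Tbx2 by 0.85 in the same direction, while Igfbp6 differed by -1.02 and Hey1 by -0.95.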

How the results depend on the processing

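With a minimum log2 difference of 1, the members called fell from 6 to 3 in terminal end buds, from 3 to 0 in ducts and from 2 to 0 between the structures, and the further genes of the list from 62 to 8, from 48 to 3 and from 30 to 2. On title numbers up to 193 alone the further genes called were 36, 17 and 5, where 2 arrays per group remain. Leaving out 1 array at a time gave 6 to 7, 2 to 3 and 2 to 3 members, and 53 to 63, 41 to 48 and 23 to 30 further genes. The share of all probes called is given for the main fit alone. Whether these counts moved more or less than those of all probes cannot be read here. No called value of a member changed sign under any alternative run. Values of members that were not called changed sign in 42 cases, among them Boc between the structures. The calls of Dhh and Sufu (NM_015752) between the structures held under all of them other than the minimum size, with highest limma adjusted p of 0.0423 and 0.023. Sign-change permutations of 6 arrays reach no p below 0.0312, and 0 probes passed them over stroma after adjustment, while 7135 in terminal end buds and 5567 in ducts had an unadjusted p under 0.05. The replicate block of neighbouring title numbers (correlation 0.072) left the member counts at 6, 3 and 2.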
